A study of Mus musculus with 617 samples.

Results

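Glutathione metabolism was followed through 8 genes, Gclc, Gclm, Gss, Gsr, Gpx1, Gpx2, Gpx3 and Gpx4, out of 43628 genes measured in single mouse cells. The genes were chosen by symbol, and Gpx2 and Gss had already been seen high in embryonic stem (ES) cells kept in 2i, so their values in that comparison are given as a description and carry no test. RNA was measured in 617 single cells of 13 groups by SMART-seq2, a full-length single-cell RNA-seq method. A male and a female ES cell line with C57BL/6J mothers and CAST/EiJ fathers were each sampled in 4 states. ES cells grew in 2i and LIF (an inhibitor medium, 60 female and 51 male cells) or in serum and LIF (68 female and 52 male cells). Cells labelled Epi, epiblast stem cells derived from both lines, were kept in Activin A and FGF2 (79 female and 63 male cells), and a further female Epi culture of 7 passages gave 41 cells. Cells labelled motor neuron came from embryoid bodies treated with SAG, a smoothened agonist, and retinoic acid (39 female and 35 male cells). Per the labels, that protocol also yields interneurons. From embryos of the same cross came 23 inner cell mass (ICM) cells of day E3.5 and 23 cells of the E4.5 epiblast, whose sex is not labelled, while E5.5 epiblast cells (20 female and 63 male) had C57BL/6J parents on both sides. Each state is represented by 1 line of each sex, so sex and line are the same factor, and the cells of a group are not replicates.

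Glutathione is a tripeptide of glutamate, cysteine and glycine and the main small thiol of the cell. Glutamate-cysteine ligase, made of a catalytic subunit (Gclc) and a modifier subunit (Gclm), makes the first bond, and glutathione synthetase (Gss) adds glycine. Glutathione peroxidases use reduced glutathione to remove peroxides, and glutathione reductase (Gsr) returns the oxidised form to the reduced one. Many of these genes are known targets of the transcription factor Nrf2, which binds antioxidant response elements.

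The values were FPKM, which express a gene's reads per length and per library, so levels of different genes can be set side by side and a level is relative to the other RNA of the same cell. Read depth was unknown because counts were not used here, and the median count of genes reaching 1 FPKM ran from 8122 in E3.5 cells to 10839.5 in female E5.5 cells. Values came in 4 separately normalised tables, and only the 8 cultures (4 states in 2 lines) of the first table were compared by a test. The labelled states were checked against marker genes. Summed Pou5f1, Sox2 and Nanog, the general pluripotency genes, had a median of 1247 FPKM in female Epi cells and 221.8 in male Epi cells. The 5 naive pluripotency markers summed to medians of 55.5 and 2.60 FPKM there, 4 primed epiblast markers to 124.6 and 332.6, and the 6 endoderm markers named below to 1.87 and 35.8. Zfp42, a naive marker, reached 1 FPKM in 78 of 79 female and 0 of 63 male Epi cells. Cells labelled E4.5 epiblast had summed medians of 143.9 FPKM for 4 trophectoderm markers (Cdx2, Gata3, Elf5 and Tfap2c), 103.7 for endoderm and 103.5 for naive pluripotency. In the motor neuron cultures, 6 neuron markers were present beside 6 endoderm markers (Sox17, Gata4, Gata6, Foxa2, Sox7 and Dab2), whose summed median was 68.2 FPKM in the female and 782.0 in the male culture.

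The upstream stretches of 3 genes are shown, since Gpx2 and Gss shared the high level in 2i and Gclm, which had the widest spread between lines, holds an antioxidant response element core. They are the 250 bases before the RefSeq start (build GRCm38.p6), 5′ to 3′ on the gene's strand. In those of Gpx2 (chr12:76795555-76795804, minus strand) and Gss (chr2:155592811-155593060, minus strand) capitals mark CG dinucleotides. In that of Gclm (chr3:122245307-122245556, plus strand) capitals mark the match to the motif.
Gpx2: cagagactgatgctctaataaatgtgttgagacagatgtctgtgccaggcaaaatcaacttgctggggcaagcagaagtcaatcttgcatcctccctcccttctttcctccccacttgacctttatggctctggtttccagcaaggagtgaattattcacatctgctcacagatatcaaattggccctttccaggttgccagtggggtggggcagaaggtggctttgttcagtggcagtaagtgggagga
Gss: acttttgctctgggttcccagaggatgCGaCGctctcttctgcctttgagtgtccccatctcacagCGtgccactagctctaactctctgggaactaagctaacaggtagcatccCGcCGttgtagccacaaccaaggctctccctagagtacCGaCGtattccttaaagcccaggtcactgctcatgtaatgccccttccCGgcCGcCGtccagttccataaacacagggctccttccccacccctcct
Gclm: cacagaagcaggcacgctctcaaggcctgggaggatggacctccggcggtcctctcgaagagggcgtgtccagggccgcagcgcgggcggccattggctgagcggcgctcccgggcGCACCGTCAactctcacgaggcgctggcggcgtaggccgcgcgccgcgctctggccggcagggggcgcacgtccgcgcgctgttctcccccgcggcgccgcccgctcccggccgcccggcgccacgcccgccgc
Gpx2 and Gss differ in this stretch. The Gpx2 sequence holds 0 CG dinucleotides and that of Gss holds 10, against 41 for Gclm. Over the full 300-base window, with 50 bases after the start, Gpx2 has 0, Gss 16 and Gclm 48, where the median over 32851 RefSeq promoter windows is 7. The core antioxidant response element TGACNNNGC, searched on both strands, was found in 12.4% of all windows. Among the 6 members with a RefSeq entry (Gclc and Gsr had none) only Gclm holds it, at position -134 on the minus strand. The Tcf/Lef core CTTTGA, a motif bound by factors of the Wnt pathway and added after the values were seen, occurs in 5257 windows and, among the members, in Gss, at position -207. None of the 6 members holds both motifs. A match is a description of the letters only.

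**Figure D1:**
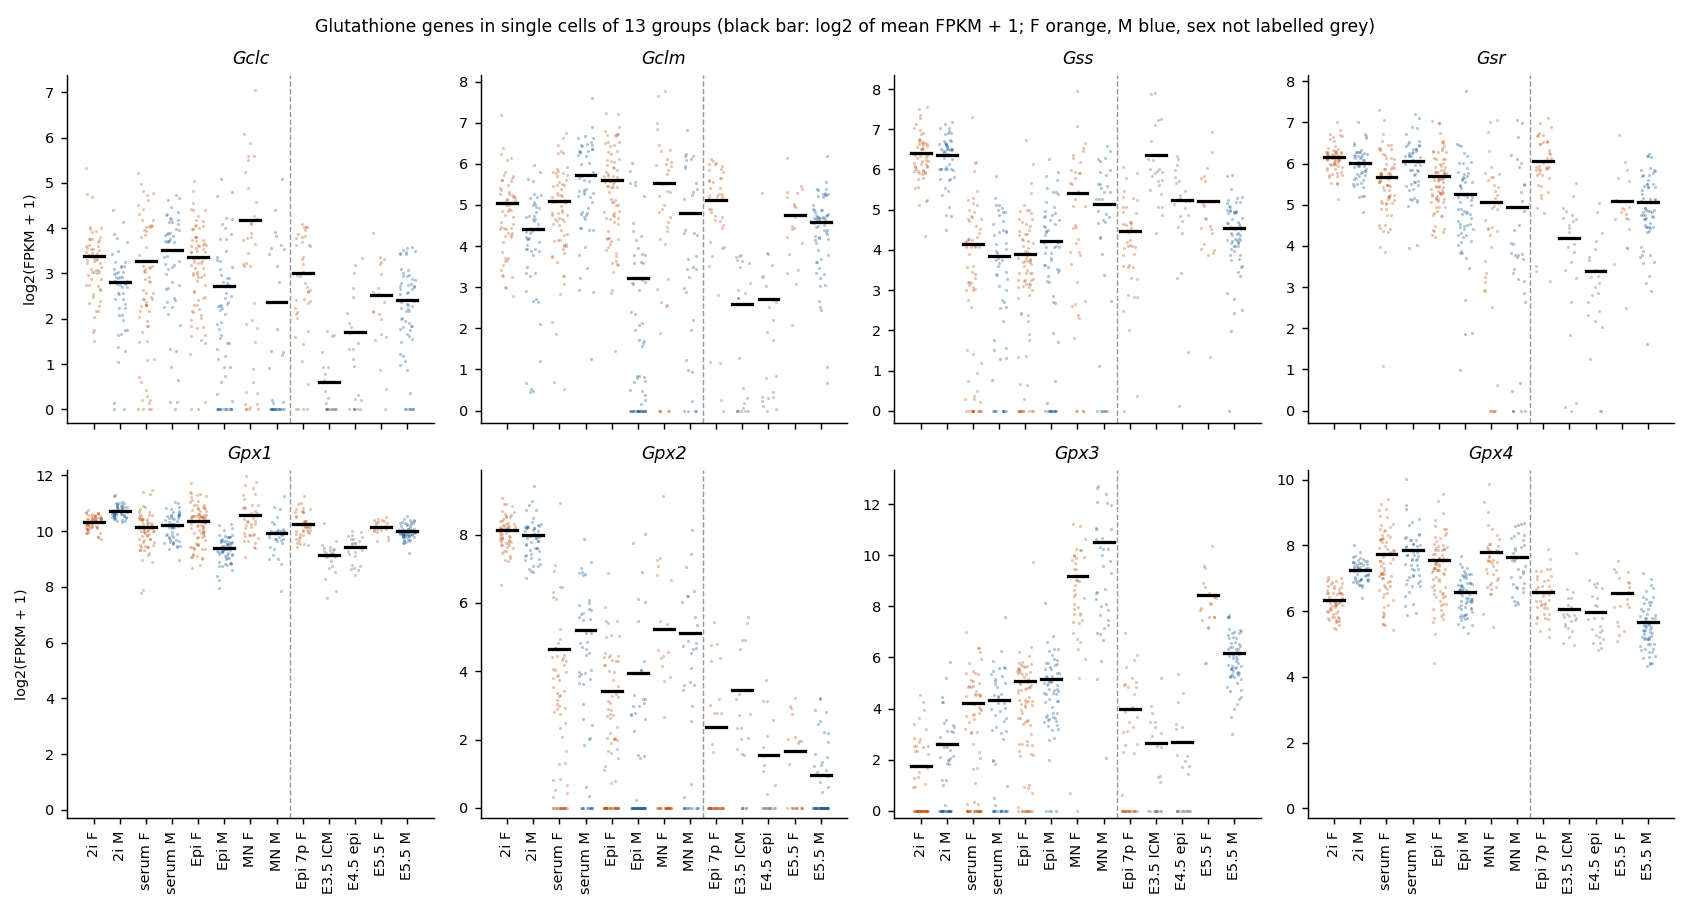
Levels of the 8 glutathione genes in single cells (points, log2(FPKM + 1)) of 13 groups, with the log2 of each group's mean FPKM + 1 as a black bar; groups right of the dashed line come from 3 other, separately normalised tables. Gpx2 and Gss sit highest in the 2i cultures among the first 8 groups, and Gpx3 in the motor neuron (MN) cultures.

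Synthesis of glutathione was read first through its rate-limiting ligase. Gclc (chr9:77754535-77794485, plus strand) averaged 9.49 FPKM in female and 6.05 in male 2i cells. In serum the means were 8.63 and 10.5 FPKM, and in Epi 9.28 and 5.60. The widest gap lay in the motor neuron cultures, where the female culture had 17.3 FPKM and the male 4.15. Only 40% of male motor neuron cells reached 1 FPKM (exact 95% interval 23.9 to 57.9, covering counting error over cells only). None of the 3 changes of Gclc passed the threshold in limma, and in each of them the 2 lines differed in sign. In the embryo Gclc was lowest at E3.5, where 4 of 23 cells reached 1 FPKM and the mean was 0.51. At a lower threshold of 0.1 FPKM 11 of the 23 cells had it, and at 5 FPKM 0 did. At E4.5, in the same table, 13 of 23 cells reached 1 FPKM, with a mean of 2.29.

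The modifier subunit Gclm (chr3:122245557-122270732, plus strand) was more abundant per length than Gclc in each of the 13 groups. Its mean was 31.9 FPKM in female and 20.3 in male 2i cells, and 32.9 and 52.05 in serum. In Epi the lines parted: the female culture had a mean of 48.1 FPKM (lowest 1.73, median 42.8, highest 148.7) and the male culture 8.32 (lowest 0, median 0.78, highest 63.8). All 79 female Epi cells reached 1 FPKM, against 31 of 63 male cells (49.2%, exact interval 36.4 to 62.1). The female culture of 7 passages, normalised in another table, had a mean of 33.98 FPKM. The change from serum to Epi was 0.53 in the female and -2.51 in the male line on the log2(mean FPKM + 1) scale, with a joint estimate of -0.99 (SE 0.77, adjusted p = 0.762 in limma). Several marker sums also differed between the 2 Epi cultures, as given above, and their part in the Gclm difference was not tested. The ratio of mean Gclm to mean Gclc was 3.36 in both 2i cultures, 1.49 in male Epi cells, 6.49 in male motor neuron cells and 9.93 at E3.5, where Gclc is near 0.

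Glutathione synthetase was one of the genes picked for its level in 2i. Gss (chr2:155563181-155592810, minus strand) averaged 84.6 FPKM in female 2i cells (lowest 19.2, median 80.2, highest 187.6) and 81.7 in male 2i cells (lowest 21.4, median 87.4, highest 143.2). In serum the means were 16.7 (lowest 0, median 9.74, highest 156.6) and 13.3 (lowest 0, median 10.5, highest 56.4). The culture means of the 2 states did not overlap, while single cells did. Each 2i cell reached 1 FPKM, as did 72.1% of female and 80.8% of male serum cells. The means in 2i were 5.06 times (female line) and 6.14 times (male line) those in serum. In Epi, Gss averaged 13.9 and 17.7 FPKM, a change from serum of 0.07 (SE 0.25, adjusted p = 0.974 in limma).

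In the motor neuron cultures Gss averaged 41.7 FPKM (female) and 34.4 (male), 2.49 and 2.58 times the serum means. The rise of 1.29 on the log2 scale (SE 0.25, adjusted p = 0.0107 in limma) passed the threshold, with 1.27 in the female and 1.31 in the male line. The median change of all 15504 genes in this comparison was 0.71, and summed FPKM per cell was also higher in motor neuron cells (medians of 1332430 and 1478620 against 862527 and 922930 in serum). With cultures scaled to a common upper quartile the change of Gss was 0.18 (adjusted p = 0.719), and with each cell rescaled to the same sum 0.75 (adjusted p = 0.0834), so the call depends on the scaling. Across its 22 alternatives Gss was called in 17, with adjusted p from 0.00731 to 0.719. It was lost without the male serum culture (1.13, adjusted p = 0.0707), in a fit of the 4 cultures alone (adjusted p = 0.0514) and in cells of the lower run of title numbers (0.91, adjusted p = 0.0472), against 1.61 in the higher run. In the embryo, E3.5 cells averaged 81.6 FPKM, near the 2i level but in a separately normalised table, and E4.5 cells 36.97. At E5.5 the means were 35.96 (female) and 22.4 (male). Gss overlaps the antisense gene Gssos2, which reached 9.49 FPKM at E3.5 and 1.70 and 0.80 in 2i. Acss2, a protein-coding gene on the opposite strand, also overlaps Gss. Its means were 1.66 (female) and 2.1997 FPKM (male) in serum. In the motor neuron cultures they were 11.7 (female) and 20.03 FPKM (male). The strandedness of the counting was not given in the sources used here, so reads of Gss, Gssos2 and Acss2 cannot be told apart. The part of Acss2 in the Gss rise was not tested.

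Glutathione reductase had the narrowest span of culture means, 2.38 times. Gsr (chr8:33652523-33698163, plus strand) averaged 70.5 and 63.97 FPKM in female and male 2i cells, 50.4 and 65.7 in serum, and 51.2 and 37.5 in Epi. The motor neuron cultures were lowest, at 32.6 and 29.6 FPKM. The change from serum of -0.87 (SE 0.25, adjusted p = 0.0388 in limma) fell short of the fold threshold of 1 on the log2 scale. With each cell rescaled to the same sum it was -1.36 (adjusted p = 0.0144) and passed, and over its 22 alternatives adjusted p ran from 0.0125 to 0.187. Gsr was 17.2 FPKM at E3.5 and 9.47 at E4.5, and 33.2 and 32.5 in female and male E5.5 cells.

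Among the peroxidases, Gpx1, the widespread cytosolic enzyme, was the most abundant member in each group except the male motor neuron culture. Gpx1 (chr9:108338903-108340343, plus strand) was present at 1 FPKM in every cell. Its culture means ran from 678 FPKM in male Epi to 1695 in male 2i cells, a span of 2.50 times. It changed by -0.34, -0.29 and 0.08 in the 3 comparisons, none past the threshold. The male motor neuron culture had 982 FPKM of Gpx1 and 1465 of Gpx3.

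Gpx4, the enzyme that reduces lipid hydroperoxides in membranes and protects from ferroptosis, was also present in every cell. Gpx4 (chr10:80047166-80056439, plus strand) averaged 80.1 FPKM in female and 152.5 in male 2i cells, 214.9 and 230.7 in serum, 187.4 and 94.6 in Epi, and 224.4 and 199.9 in motor neuron cultures. Its change from 2i to serum was 1.00 (SE 0.41, adjusted p = 0.490 in limma), with 1.41 in the female and 0.59 in the male line. In embryo cells the means lay between 50.4 (male E5.5) and 92.6 FPKM (female E5.5). The near-identical copies Gpx4-ps2 (99.7% identity over 762 bases) and AC122253.3 (95.1% over 535 bases) were not among the IDs of the tables, so reads from them could be counted with Gpx4.

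Gpx2, the peroxidase known from gut epithelium, had the widest span after Gpx3. Gpx2 (chr12:76792333-76795554, minus strand) averaged 278.5 FPKM in female 2i cells (lowest 91.1, median 271.2, highest 534.1) and 252.9 in male 2i cells (lowest 104.3, median 239.7, highest 684.7). In serum the means were 24.02 (lowest 0, median 7.10, highest 486.1) and 35.7 (lowest 0, median 15.0, highest 231.4). A few serum cells reached the level of 2i cells, but the culture means were 11.6 times (female) and 7.09 times (male) higher in 2i. Every cell in 2i had 1 FPKM or more, against 66.2% of female and 75% of male serum cells. From serum to Epi, a comparison the choice of genes did not use, Gpx2 was lower in both lines (9.63 and 14.4 FPKM), a change of -1.24 (SE 0.29, unadjusted p = 0.00437, adjusted p = 0.712 in limma) that did not pass. The female 7-passage culture had 4.19 FPKM in its own table. Means of Gpx2 in embryo cells, from separately normalised tables, were below those in 2i. They were 10.0 FPKM at E3.5, 1.91 at E4.5, and 2.19 and 0.97 in female and male E5.5 cells.

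Gpx2 values are uncertain because a processed pseudogene, Gpx2-ps1 on chromosome 7, is 98.1% identical to Gpx2 over 572 bases. The tables listed Gpx2-ps1 at 162.4 and 173.2 FPKM in female and male 2i cells, and at 17.04 and 31.7 in serum. Its mean was 0.49 to 0.89 times that of Gpx2 in the 8 cultures, the 7-passage culture and the E3.5 and E4.5 cells, and it was listed at 0 in all E5.5 cells. The pseudogene was above 0 where Gpx2 was at 0 in 1 male Epi cell and 2 female motor neuron cells, and in 0 cells of each other group. Across cells within a group Spearman's rho between both ranged from 0.47 (E3.5) to 0.82 (female motor neuron), as a description over cells that share reads and libraries. Gpx2 also overlaps Fntb on the opposite strand, whose means in 2i were 60.02 and 55.7 FPKM and in serum 53.1 and 37.7.

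**Figure D2:**
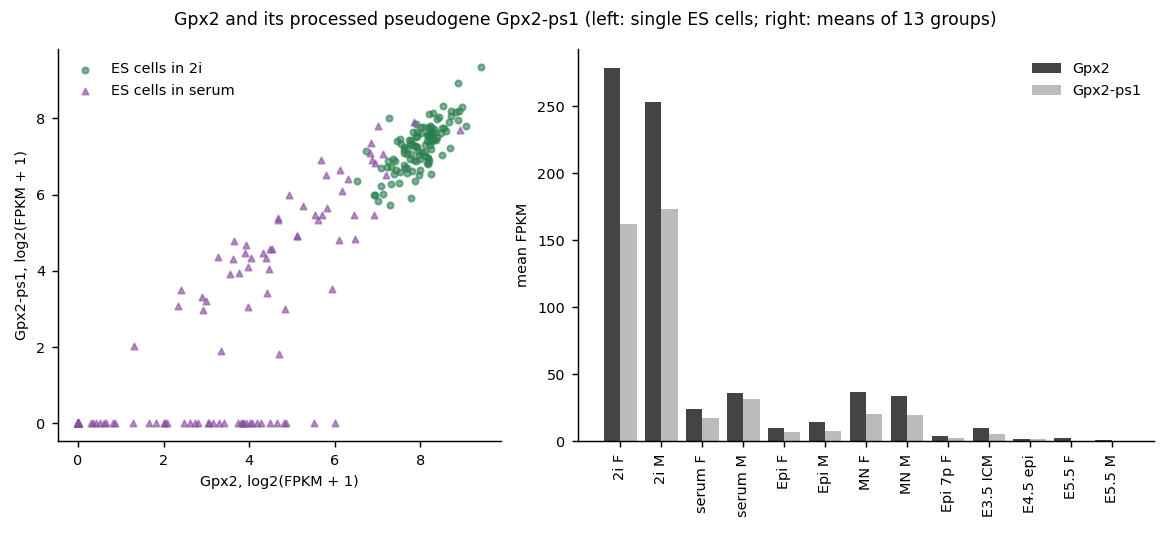
Left, log2(FPKM + 1) of Gpx2 (x) and of its pseudogene Gpx2-ps1 (y) in single ES cells in 2i (circles) and serum (triangles); right, mean FPKM of both in 13 groups. The pseudogene follows Gpx2, with means of 162.4 and 173.2 FPKM in 2i and 17.04 and 31.7 in serum, and is listed at 0 at E5.5.

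Over the 8 cultures, the 3 protein-coding genes with the pattern most like Gpx2 were Relb (Pearson r = 0.978), Fkbp3 (0.956) and Pgc (0.946), among 9303 genes of at least 10 FPKM in some culture. Relb, a subunit of NF-kappa-B, averaged 29.4 and 39.6 FPKM in 2i against 4.46 to 9.47 in the other cultures. The immunophilin gene Fkbp3 spanned much less, from 474.3 to 901.2 FPKM. Pgc, which encodes a pepsinogen, had 56.6 and 44.2 FPKM in 2i and at most 1.97 elsewhere. The genes most like Gss were Slc5a6 (0.980), Grsf1 (0.979) and Wtap (0.968). Slc5a6, a vitamin transporter, averaged 19.03 and 20.9 FPKM in 2i, 4.77 and 4.73 in serum, and 9.17 and 10.2 in motor neuron cultures. Grsf1, an RNA-binding protein gene of mitochondria, went from 77.9 and 70.5 FPKM in 2i to 22.8 and 25.3 in serum. Ranked by Spearman's rho instead, 1 of 3 genes was shared for Gpx2 (Fkbp3) and 1 of 3 for Gss (Slc5a6).

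Gpx3, the secreted peroxidase of plasma, had the lowest level in 2i and the highest in motor neuron cultures. Gpx3 (chr11:54902453-54910377, plus strand) averaged 2.36 and 5.10 FPKM in female and male 2i cells, 17.6 and 19.1 in serum, and 32.6 and 34.3 in Epi. The female motor neuron culture had a mean of 585.8 FPKM (lowest 0, median 356.1, highest 2412) and the male 1465 (lowest 3.17, median 632.7, highest 6730). Culture means of the 4 states did not overlap, and those of motor neuron cultures were 33.3 and 76.7 times those of serum. The rise of 5.59 on the log2 scale (SE 0.48, adjusted p = 0.00211 in limma) passed the threshold, with 4.98 in the female and 6.19 in the male line. It also passed under each of the 22 alternatives, where the change ran from 4.11 to 6.40 and adjusted p from 0.00125 to 0.0318.

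From 2i to serum Gpx3 was 7.45 times higher in the female and 3.74 times in the male line, a change of 2.09 (SE 0.48, unadjusted p = 0.00409, adjusted p = 0.197 in limma) that did not pass. Of the 6 members tested between serum and 2i, 0 were called in limma, with 2 at an unadjusted p under 0.05, while 0.0193% of all 15504 genes were called. Between Epi and serum 0 of 8 were called and 1 had an unadjusted p under 0.05, against 0.0387% of all genes called. Between motor neuron and serum 2 of 8 were called, Gpx3 and Gss, against 32.8% of all genes (30.1% higher and 2.7% lower), a share near the background. The median change of the 8 members there was 0.00, beside 0.71 over all genes. In the plot of changes by line the points of the 2 lines lie close together for Gss between motor neuron and serum (1.27 and 1.31) and for Gpx3 between Epi and serum (0.86 and 0.81), and part most for Gclm and Gclc.

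**Figure D3:**
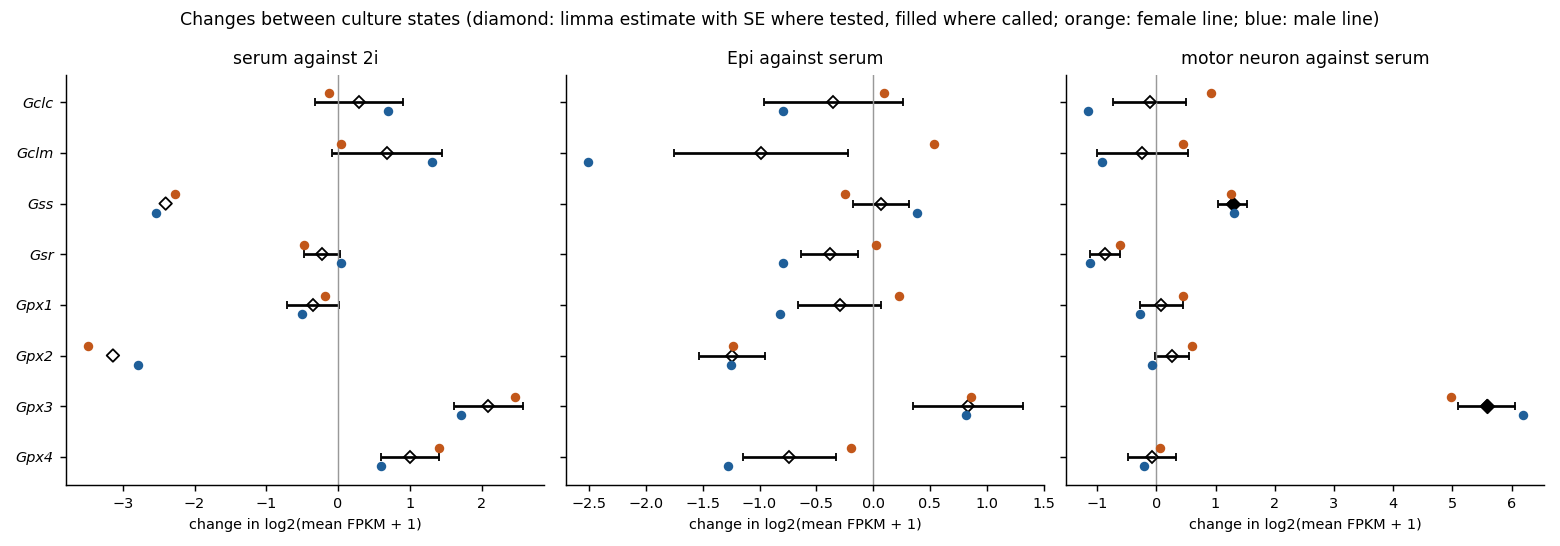
Change in log2(mean FPKM + 1) of the 8 genes in 3 comparisons, for the female line (orange), the male line (blue) and as the limma estimate with its SE (diamond, filled where called); Gpx2 and Gss in serum against 2i are drawn without an SE because they were not tested. Gpx3 (5.59) and Gss (1.29) are called between motor neuron and serum.

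Cells of the motor neuron cultures were then set on a scale of neuron minus endoderm markers (mean log2(FPKM + 1) of 6 genes each), in which the members have no part. In the female culture 26 cells lay on the neuron side and 13 on the endoderm side. Over the whole culture 4 cells were within 1 unit of 0, all on the neuron side. The male culture had 18 and 17 cells on the 2 sides, with 1 cell in all within 1 unit, on the endoderm side. On the neuron side Isl1, a transcription factor of motor neurons, averaged 192.2 (female) and 368.0 FPKM (male), against 2.88 and 2.21 on the endoderm side. Its neuron-side median was only 5.52 FPKM in the female culture, with 15 of 26 cells at 1 FPKM or more. In the male culture that median was 319.1 (16 of 18 cells). Sox17, a transcription factor of endoderm, averaged 258.3 and 656.4 FPKM on the endoderm side, against 5.12 and 52.6 on the neuron side. The cut gives ranges of a score, not cell types, and no test was made between the sides.

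Gpx3 was higher on the endoderm side in both cultures, at 976 FPKM (lowest 104.3, median 942.0, highest 2412) against 390.6 (lowest 0, median 244.3, highest 2284) in the female one. In the male culture the means were 2716 (lowest 101.8, median 2097, highest 6730) and 283.9 (lowest 3.17, median 217.2, highest 1234). Across cells its Spearman's rho with the endoderm marker mean was 0.56 (39 female cells) and 0.85 (35 male cells). The neuron side alone differed from serum by 4.11 (adjusted p = 0.0025 in limma), and the endoderm side alone by 6.40 (adjusted p = 0.00151). Cells of the neuron side also held endoderm markers: Sox17 reached 1 FPKM in 6 of 26 female and 15 of 18 male cells. The part of such cells in the Gpx3 level of the neuron side was not tested.

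Gpx2 differed more between the sides than between the whole cultures and serum. Its means were 101.8 FPKM on the endoderm and 4.41 on the neuron side in the female culture, and 55.6 and 13.3 in the male one. Whole motor neuron cultures differed from serum by 0.26 (adjusted p = 0.502 in limma), the neuron side alone by -1.78 (adjusted p = 0.0349) and the endoderm side alone by 1.33 (adjusted p = 0.0406), while over all 22 alternatives adjusted p ran from 0.0349 to 1. Gss averaged 39.3 (neuron side) and 46.6 FPKM (endoderm side) in the female and 37.7 and 30.9 in the male culture. Its medians were higher on the endoderm side in both, at 14.4 and 49.7 FPKM (female) and 29.6 and 37.5 (male). Spearman's rho of Gss with the endoderm marker mean was 0.10 over 39 female and -0.066 over 35 male cells. Its change from serum was 1.31 for the neuron and 1.29 for the endoderm side alone. In the male culture Gpx4 averaged 115.5 FPKM on the neuron and 289.2 on the endoderm side and Gclm 15.3 and 39.3, while in the female culture the values were 222.4 and 228.3 for Gpx4 and 47.1 and 42.6 for Gclm.

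**Figure D4:**
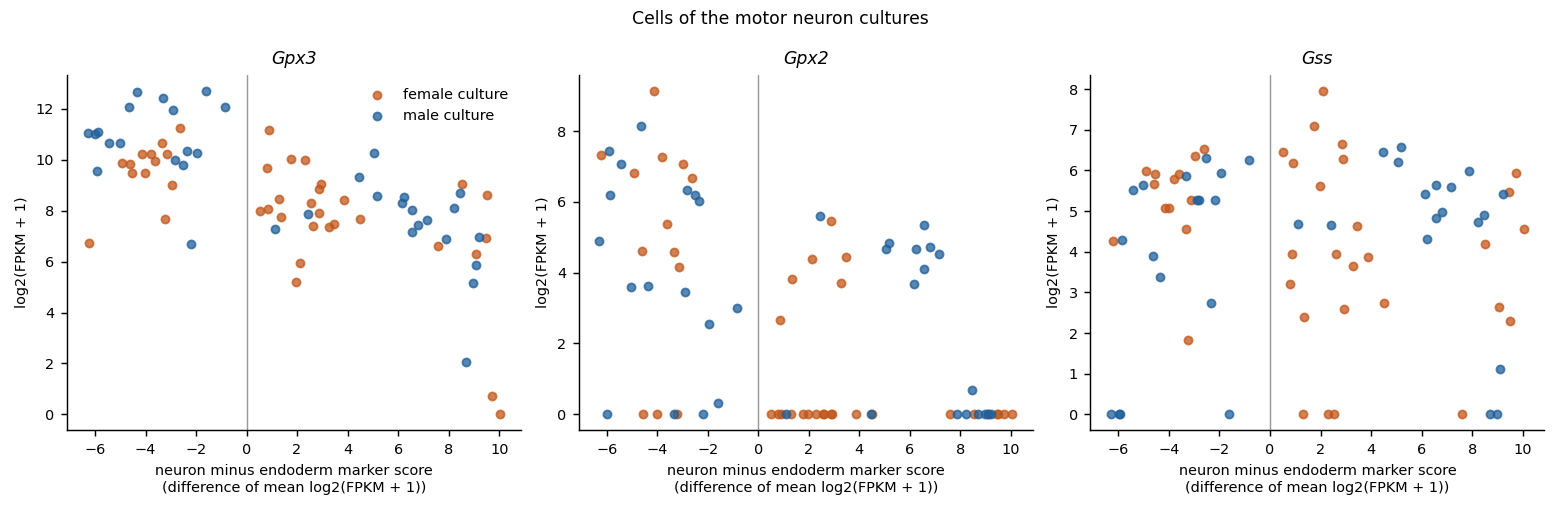
Cells of the female (orange) and male (blue) motor neuron cultures, with the neuron minus endoderm marker score on x and log2(FPKM + 1) of Gpx3, Gpx2 and Gss on y; the grey line marks a score of 0. Gpx3 is higher left of the line (means of 976 and 2716 FPKM) than right of it (390.6 and 283.9), while the medians of Gss are 49.7 and 37.5 FPKM left of it and 14.4 and 29.6 right of it.

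At E5.5 Gpx3 was higher in the female than in the male cells. Female cells averaged 346.4 FPKM (lowest 53.9, median 259.8, highest 1310) and male cells 71.4 (lowest 6.97, median 60.2, highest 202.4), a ratio of 4.85 with some overlap. Each sex is 1 sample here, so there is no test. A pair of marker lists, added after these values were seen, was also higher in female cells. Other lists differed as well. Summed medians (female, then male) were 163.7 and 63.8 FPKM for endoderm and 30.1 and 7.63 for trophectoderm. For naive pluripotency they were 20.4 and 6.55. They were lower in female cells for primed epiblast (690.3 against 1069), general pluripotency (499.8 against 823.5) and neuron markers (31.5 against 41.7). The 6 visceral endoderm genes (Ttr, Afp, Apoa1, Apob, Rbp4 and Amn) had a summed median of 2355 FPKM (213.1 to 10697) in female and 537.4 (20.9 to 2890) in male cells labelled epiblast, and 0 of the 6 had a median of 0 in either sex. The 8 decidua genes, of the maternal tissue around the embryo, had a summed median of 40.98 FPKM (3.71 to 245.2) in female and 4.37 (0 to 49.1) in male cells, with 3 and 7 of the 8 at a median of 0. Among them Prl8a2 averaged 43.8 FPKM in female and 2.95 in male cells, where the whole list summed to means of 51.3 and 7.02. The female sum is therefore mostly that 1 gene. Only Prlr was higher in male cells, at 1.18 against 0.99 FPKM.

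Within each sex Gpx3 was higher in cells with a higher visceral endoderm marker mean, with Spearman's rho of 0.79 over 20 female and 0.75 over 63 male cells. With the decidua mean rho was 0.78 in female and 0.09 in male cells. The part of either tissue in the Gpx3 difference was not tested. At E3.5 and E4.5 the visceral endoderm list had a summed median of 0, and Gpx3 averaged 5.24 and 5.39 FPKM in another table. Other members were also higher in female E5.5 cells: Gpx2 had 2.19 against 0.97 FPKM, Gpx4 92.6 against 50.4 and Gss 35.96 against 22.4. Gpx4's rho with Gpx3 was 0.48 in both sexes.

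**Figure D5:**
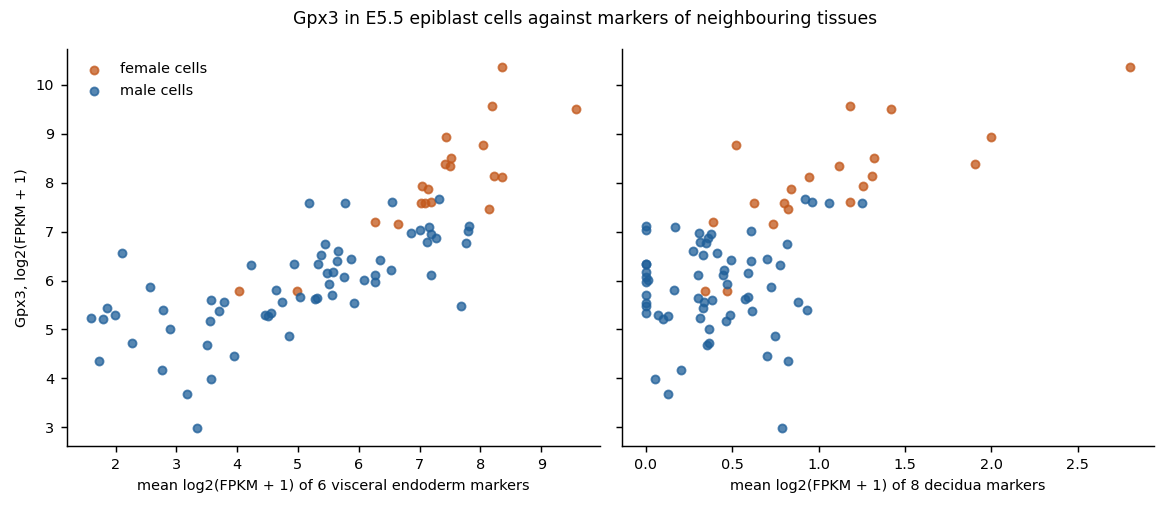
Log2(FPKM + 1) of Gpx3 in 20 female and 63 male E5.5 epiblast cells (y) against the mean log2(FPKM + 1) of 6 visceral endoderm markers (left) and 8 decidua markers (right), female cells in orange and male cells in blue. Gpx3 is higher where the visceral endoderm mean is higher in both sexes (rho of 0.79 and 0.75) and with the decidua mean in female cells (0.78 against 0.09 in male cells).

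Across single cells of a culture few pairs of the 8 members were correlated. Of 28 pairs per culture, the median Spearman's rho lay between -0.01 and 0.27 in the 8 cultures. Pairs of 0.5 or more in size numbered 4 in the male motor neuron culture and at most 1 in each other culture. The highest was Gpx3 with Gpx4 in that culture (rho = 0.76 over 35 cells), both higher on its endoderm side. In these sparse values a weak rho is no finding, and the cells of a culture share their library preparation.

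The wider pathway was read through 89 genes in 9 lists, 81 of which had a mean of at least 1 FPKM. Between serum and 2i, and between Epi and serum, 0 of 81 were called in limma, beside 0.0193% and 0.0387% of all genes. With so few genes called, a count of 0 does not show that the lists were unchanged. Between motor neuron and serum 21 were called higher and 4 lower (30.9%, beside 32.8% of all genes). That direction turns with the scaling: with each cell rescaled to the same sum 9 were called higher and 9 lower, and with upper-quartile scaling 4 and 15. Of all genes, 14.2% and 9.47% were then called higher and 6.36% and 11.7% lower. The genes named here kept their direction under both scalings, and all but Gpx8 kept their call (adjusted p = 0.0903 in limma with upper-quartile scaling). Glutathione S-transferases, which join glutathione to other molecules, had 7 of 20 called higher (35%, beside 30.1% of all genes) and 0 lower. Their median change was 1.25, beside 0.71 over all genes. Gstm7 rose by 3.81, from 0.44 and 0.96 FPKM in serum to 17.7 and 28.9. Of genes for breakdown and export, Ggt7 (gamma-glutamyltransferase family) rose by 4.18, from 0.41 and 0.61 to 17.4 and 39.6 FPKM, while Ggct (gamma-glutamylcyclotransferase) fell by 1.51. Glrx, a glutaredoxin, which reduces protein disulfides with glutathione, rose by 4.06, from 0.80 and 2.25 to 28.97 and 53.3 FPKM.

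Of the 3 other peroxidases tested, Gpx8 rose by 3.09 and Gpx7 fell by 1.88. For cysteine supply 2 of 6 were called lower and 0 higher. Of all genes 2.7% were called lower there, and 11.7% with upper-quartile scaling. Cth, the last enzyme of transsulfuration, fell by 2.80, from 93.0 and 68.3 FPKM in serum to 17.2 and 6.39. Slc1a5, a neutral amino acid transporter, fell by 1.13. Of 13 genes of Nrf2 regulation and other Nrf2 targets 4 were called higher (30.8%, near the 30.1% of all genes) and 0 lower. Their median change was 0.54, below the 0.71 of all genes. Of the thioredoxin and peroxiredoxin genes 4 of 13 were called higher (30.8%), again near the share of all genes. Of the selenoprotein synthesis genes, on which Gpx1 to Gpx4 depend for selenocysteine, 1 of 8 was (12.5%), below that share.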

How the data were processed

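Per the labels' protocols, libraries of single cells were made by SMART-seq2 combined with a Tn5 step. The authors deposited FPKM values per gene and cell in 4 tables. The submitters' processing notes name STAR 2.4.1, Cufflinks, Cuffnorm 2.2.1 and the build mm10, without roles. What the FPKM is scaled to, the strandedness and the cell filters are not given in the sources used here. Counts were not used, so depth is unknown. Each table held 43628 Ensembl IDs, and 42548 of them matched GENCODE vM21 (GRCm38), the source of symbols and coordinates. In 356 values an exponent written with a low line was read as negative (largest 9.7552e-05 FPKM).

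Each culture was summarised as its mean FPKM over cells. limma 3.58.1 (R 4.3.3, trend) was fitted to log2(mean FPKM + 1) of 8 cultures, 4 states with 1 culture per line, for 15504 genes averaging at least 1 FPKM, with 4 residual degrees of freedom. All 8 members passed that filter. Calls needed an adjusted p (Benjamini-Hochberg, over all genes) under 0.05 and a change of 1 or more on the log2 scale. The p-values measure the spread between the 2 lines only. Fold changes on this scale understate the change of low genes. Groups with 1 sample per arm carry no test, and shares of cells at 1 FPKM have exact Clopper-Pearson intervals. On simulated data with 200 changed genes among 15504, changes of 3 on the log2 scale were found for 54.0% between serum and 2i, 55.5% between Epi and serum and 65.0% between motor neuron and serum. Of changes of 1.5, 0%, 0.50% and 0% were found. Between motor neuron and serum 5088 genes were called, far more than the 200 changed in the simulation. The adjusted p is less strict there, so the simulated shares do not carry over to that comparison.

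The same 2 lines run through all states, per the labels, so the line pairs the cultures. Female minus male deviations of 2 states correlated across genes with Pearson r from 0.06 to 0.16. Members and lists were chosen with earlier results of these data known. The genes named beside the 8 members were the 3 most like Gpx2 and Gss by Pearson r, and, per comparison, those 4 called pathway genes that rose most and those 4 that fell most. Genes in the marker lists, the pseudogenes and overlapping genes were named outside that rule. Splitting the motor neuron cultures in the fit, the visceral endoderm and decidua lists and the Tcf/Lef motif were added after seeing the data. Near-identical copies were found with blastn among GENCODE transcripts, at 90% identity or more over at least 300 bases.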

Additional observations from a re-analysis of the deposited data

Results flagged for a closer look

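The female and the male line changed in opposite directions in 12 cases, each line being 1 culture per state. The difference between the lines was not tested in any of them. All values are changes in log2(mean FPKM + 1), first in the female and then in the male line.

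From 2i to serum, Gclc changed by -0.12 and 0.70, and Gsr by -0.48 and 0.037.

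From serum to Epi, Gclm had the widest gap, at 0.53 and -2.51. Gpx1 changed by 0.23 and -0.82 and Gss by -0.25 and 0.38. Gclc changed by 0.095 and -0.80 and Gsr by 0.023 and -0.79. In 4 of these 5 genes the male line was the one that was lower in Epi, and in Gss the female line was.

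From serum to motor neuron, Gclc had the widest gap, at 0.92 and -1.15. Gclm changed by 0.46 and -0.92 and Gpx1 by 0.44 and -0.28. Gpx2 changed by 0.60 and -0.072 and Gpx4 by 0.062 and -0.21.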

How the results depend on the processing

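Depth is unknown and 2 cultures per state limit the precision, and changes of 1.5 on the log2 scale were hardly recovered in simulated data. Those data had far fewer changed genes than were called between motor neuron and serum, so that recovery does not apply to that comparison. Gpx3 between motor neuron and serum kept its direction and its call in all 22 alternatives. A replicate block for the line left all members on the same side of the threshold (Gpx3 5.59, adjusted p = 0.00405, and Gss 1.29, adjusted p = 0.0145, in limma). Of the shares of cells with a member, taken at 0.1 or 5 FPKM instead of 1, 32 moved outside their exact interval and 176 did not. Causes of the changes below were not tested. Gpx2 and Gss were picked for their level in 2i, so their direction between serum and 2i carries no support. Over 20 alternatives each, their changes ran from -4.74 to -2.79 and from -3.27 to -2.17.

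Members called between motor neuron and serum were 2, but 1 in a fit of the 4 cultures alone. With a culture left out they were 1 to 2. For neuron-side cells only, 4 were called, with a median change of all genes of 0.73. The share of all genes called in that fit is not given here, so the count of 4 has no background beside it. With each cell rescaled to the same sum, Gsr was called instead of Gss. The share of all genes called between serum and 2i, 0.0193%, was 0% with a pseudocount of 0.1, with the replicate block and in the fit of 4 cultures. It was 0.0797% without a filter, 0.0401% with a filter at 5 FPKM, 1.44% with log2 values averaged over cells, 0.045% with upper-quartile scaling, 0.738% with the 7-passage Epi culture, 0.0714% in the higher run of title numbers and 0% to 0.245% with a culture left out. Between Epi and serum 0.0387% became 0.0129% with the replicate block, 0% in the fit of 4 cultures, 5.49% with the 7-passage culture, 0.00653% in the lower run and 0% to 2.17% with a culture left out (2.17% without the female Epi culture). Between motor neuron and serum 32.8% became 11.7% without a filter, 20.5% with rescaled cells, 21.2% with upper-quartile scaling, 18.6% in the fit of 4 cultures and 10.6% to 36% with a culture left out. There the median change of all genes, 0.71, was 0.14 with rescaled cells and -0.27 with upper-quartile scaling, and 91.8% of calls were higher, against 69% and 44.7%. With log2 values averaged over cells 75% were.

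These changes turned sign under some setting. Between serum and 2i, Gclm was -0.0034 in the lower run. With a culture left out, changes between Epi and serum ran from -0.78 to 0.19 for Gpx1, -0.093 to 0.23 for Gss (also negative without the male serum culture, at -0.087) and -2.19 to 0.21 for Gclm. Gclm was positive only without the male Epi culture. In the lower run Gss was -0.32 and Gclc 0.070. Between motor neuron and serum the ranges with a culture left out were -0.25 to 0.41 for Gpx1, -0.013 to 0.54 for Gpx2, -0.15 to 0.011 for Gpx4, -1.03 to 0.80 for Gclc and -0.60 to 0.13 for Gclm. Gpx1 was -0.52 with rescaled cells, -1.08 with upper-quartile scaling, -0.062 in the lower run and -0.074 on the neuron side. Gpx2 was -0.51 with log2 values averaged, -0.20 with rescaled cells, -0.85 with upper-quartile scaling and -1.78 on the neuron side. Gpx4 was 0.21 on the endoderm side. Gclc was 0.096 and Gclm 0.35 in the lower run, and Gclc was 0.078 on the neuron side. Without the male serum culture Gclc was 0.010 and Gclm 0.088.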
